A study of Mus musculus with 23 samples.

Results

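Accessible chromatin around 34 genes of the TGF-beta and BMP pathway was followed through mouse monocytes, liver macrophages and cultured macrophages with ATAC-seq, an assay that tags open DNA with a transposase and reads the tags as peaks. Peaks of the 23 libraries were merged into 155137 regions, and a region was given to a pathway gene when no body of another protein-coding gene lay closer and the gap was at most 50 kb. The rule gave 457 regions (0.295% of all), spread over 33 of the 34 genes. Bmp4, a BMP ligand gene, had none. Of the 457 regions, 308 overlapped the gene body, called intragenic here (67.4%, against 60.1% of all regions) and 81 were called in all 23 libraries (17.7%, against 17.2%). The number of regions per gene ran from 45 for Tgfbr2 and 33 for Ltbp1 to 3 each for Tgfb3, Thbs1 and Nog and 2 for Bmp6.

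Ligands of this family (the TGF-betas, BMPs and activins) bind pairs of type I and type II receptor kinases at the cell surface. The type I receptor phosphorylates receptor-regulated Smads, which join Smad4, enter the nucleus and bind DNA with partner factors. Ski, Skil, Tgif1, Smad7, Smurf1, Smurf2, Pmepa1, Bambi and Nog restrain the signal at different levels, and in the liver TGF-beta and BMP ligands are made by endothelial and stellate cells that neighbour Kupffer cells, the resident macrophages.

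The 11 groups fall into 4 sets. In the repopulation experiment, mice carried Clec4f-cre and a Cre-dependent diphtheria toxin receptor (Rosa26iDTR), so that the toxin removes cells that have expressed Clec4f, a Kupffer cell gene. Its groups were blood Ly6C-high monocytes of untreated C57BL/6J mice (n = 2), repopulating liver macrophages 24 h (n = 3) and 48 h (n = 2) after toxin, and Kupffer cells of Clec4f-cre/Rosa26iDTR mice given PBS (n = 2). The blood monocytes did not carry the transgenes. The Nr1h3 experiment used TIM4- (n = 2) and TIM4+ (n = 2) Kupffer cells of Nr1h3 flox/flox Clec4f-cre +/- mice and TIM4+ Kupffer cells of Nr1h3 flox/flox mice without Cre (n = 2). Nr1h3 encodes the nuclear receptor LXR-alpha, and TIM4, the product of Timd4, marks mature Kupffer cells. In the Smad4 experiment the titles and the strain labels disagree. The 2 libraries titled as knockout carry the strain label Smad4 flox/flox, and the 2 titled as control carry Smad4 flox/flox with Clec4f-cre +/-. Directions below follow the titles. The culture experiment used C57BL/6J bone marrow-derived macrophages (BMDMs) cultured for 4 days, given the Notch ligand DLL4 for 24 h (n = 2) or left untreated (n = 2).

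Libraries held 10.4 to 18.4 M tags and 48775 to 104206 peaks, and 15.4% to 54.7% of tags lay in peaks, with the lowest share in a library titled Smad4 KO and the highest in a DLL4 library. Replicates shared 70.5% to 81.9% of their pathway regions. Pathway genes held 0.281% to 0.315% of the regions of each library. Markers followed the labels in part. Kupffer cell markers (Clec4f, Timd4, Cd5l, Vsig4, Marco, Cdh5) held 0.0653% to 0.0656% of peak signal in PBS Kupffer cells, with a region at 6 of 6, against 0.0115% to 0.0134% in blood monocytes. Timd4 had no region in blood, 24 h or 48 h libraries, and the monocyte gene Chil3 had none in any Kupffer cell group. BMDM libraries, however, had regions at 6 of 6 Kupffer cell markers, Timd4 included. These held 0.0369% to 0.0406% of their peak signal, against 0.0259% to 0.0320% at 48 h. In every library of a liver group the liver endothelial marker Gpr182 was at 0, although other endothelial genes had regions. As these are bulk samples, fewer cells with an open region and less opening per cell cannot be told apart. The labels do not state for every group that replicates came from separate animals or cultures, so p-values measure the spread between these samples.

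The promoters of 22 of the 34 genes were found in the RefSeq promoter table (GRCm38.p6), and 14 of them carried a region called in at least 20 libraries. The 250 bases upstream of the start are given for 5 genes whose promoter region differed in a comparison below: the BMP receptor gene Bmpr1a (chr14:34502547-34502796, minus strand), the repressor gene Tgif1 (chr17:70851735-70851984, minus strand), Smad3 (chr9:63757995-63758244, minus strand), the ubiquitin ligase gene Smurf1 (chr5:144965831-144966080, minus strand) and Tgfbi, a matrix gene that TGF-beta induces (chr13:56609336-56609585, plus strand). Capitals mark CAGAC, the Smad box, on either strand (GTCTG on the other), and GGCGCC, a palindromic GC element of the kind BMP Smads bind.
Bmpr1a: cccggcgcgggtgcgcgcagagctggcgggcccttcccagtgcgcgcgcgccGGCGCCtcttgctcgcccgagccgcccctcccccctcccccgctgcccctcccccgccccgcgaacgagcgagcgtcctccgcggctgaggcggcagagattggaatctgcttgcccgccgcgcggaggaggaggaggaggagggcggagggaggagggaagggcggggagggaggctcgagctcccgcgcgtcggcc
Tgif1: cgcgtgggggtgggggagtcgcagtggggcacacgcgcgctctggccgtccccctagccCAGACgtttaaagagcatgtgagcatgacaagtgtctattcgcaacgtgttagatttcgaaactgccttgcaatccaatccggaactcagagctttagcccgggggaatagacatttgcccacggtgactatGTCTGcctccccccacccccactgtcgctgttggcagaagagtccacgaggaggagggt
Smad3: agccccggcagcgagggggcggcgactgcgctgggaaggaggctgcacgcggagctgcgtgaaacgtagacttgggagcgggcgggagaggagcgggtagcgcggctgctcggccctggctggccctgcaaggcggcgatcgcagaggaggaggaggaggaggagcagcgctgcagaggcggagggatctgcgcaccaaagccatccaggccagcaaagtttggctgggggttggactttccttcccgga
Smurf1: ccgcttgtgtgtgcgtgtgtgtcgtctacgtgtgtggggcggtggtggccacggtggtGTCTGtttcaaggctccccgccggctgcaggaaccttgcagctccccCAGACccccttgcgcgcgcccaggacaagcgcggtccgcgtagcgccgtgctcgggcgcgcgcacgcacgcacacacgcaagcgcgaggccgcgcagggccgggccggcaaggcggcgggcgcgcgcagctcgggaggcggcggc
Tgfbi: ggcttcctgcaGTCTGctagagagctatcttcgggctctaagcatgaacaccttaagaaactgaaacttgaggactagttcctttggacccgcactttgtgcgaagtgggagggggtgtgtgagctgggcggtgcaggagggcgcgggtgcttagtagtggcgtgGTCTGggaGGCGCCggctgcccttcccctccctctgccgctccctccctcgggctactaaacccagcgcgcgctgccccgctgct
Bmpr1a held 1 GGCGCC and no CAGAC. Tgif1 and Smurf1 each held 2 CAGAC, Tgfbi held 2 CAGAC and 1 GGCGCC, and the Smad3 window held neither. Among 32851 promoters, 42.2% held CAGAC and 9.59% held GGCGCC within the same length, so the Smad box is common in any promoter. A match of letters is a description of the window and says nothing of binding.

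The Bmpr1a promoter differed in 5 of the 9 comparisons. Bmpr1a encodes a type I receptor for BMPs, and its promoter region (chr14:34502379-34502917) was called in all 23 libraries. Its normalized tag count (tags per 10 M) was 16.3 and 17.6 in blood monocytes, 22.5, 22.7 and 21.8 at 24 h, 25.3 and 37.4 at 48 h, and 86.3 and 97.8 in Kupffer cells. In the Nr1h3 experiment it was 14.7 and 15.3 in TIM4- knockout cells and 11.5 and 25.9 in TIM4+ knockout cells, against 46.8 and 42.9 in control cells. It was 12.8 and 12.4 in cells titled Smad4 KO, against 32.1 and 33.9 in cells titled control, and 72.7 and 47.2 in DLL4-treated BMDMs, against 38.1 and 41.2 untreated. PBS Kupffer libraries stood above all others, whereas control Kupffer cells of the Nr1h3 and Smad4 experiments lay in or below the range of the BMDM libraries. Each Nr1h3 knockout group lay below its control cells without overlap, as did cells titled Smad4 KO below cells titled control. The TIM4- values lay inside the range of the TIM4+ knockout values.

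**Figure D1:**
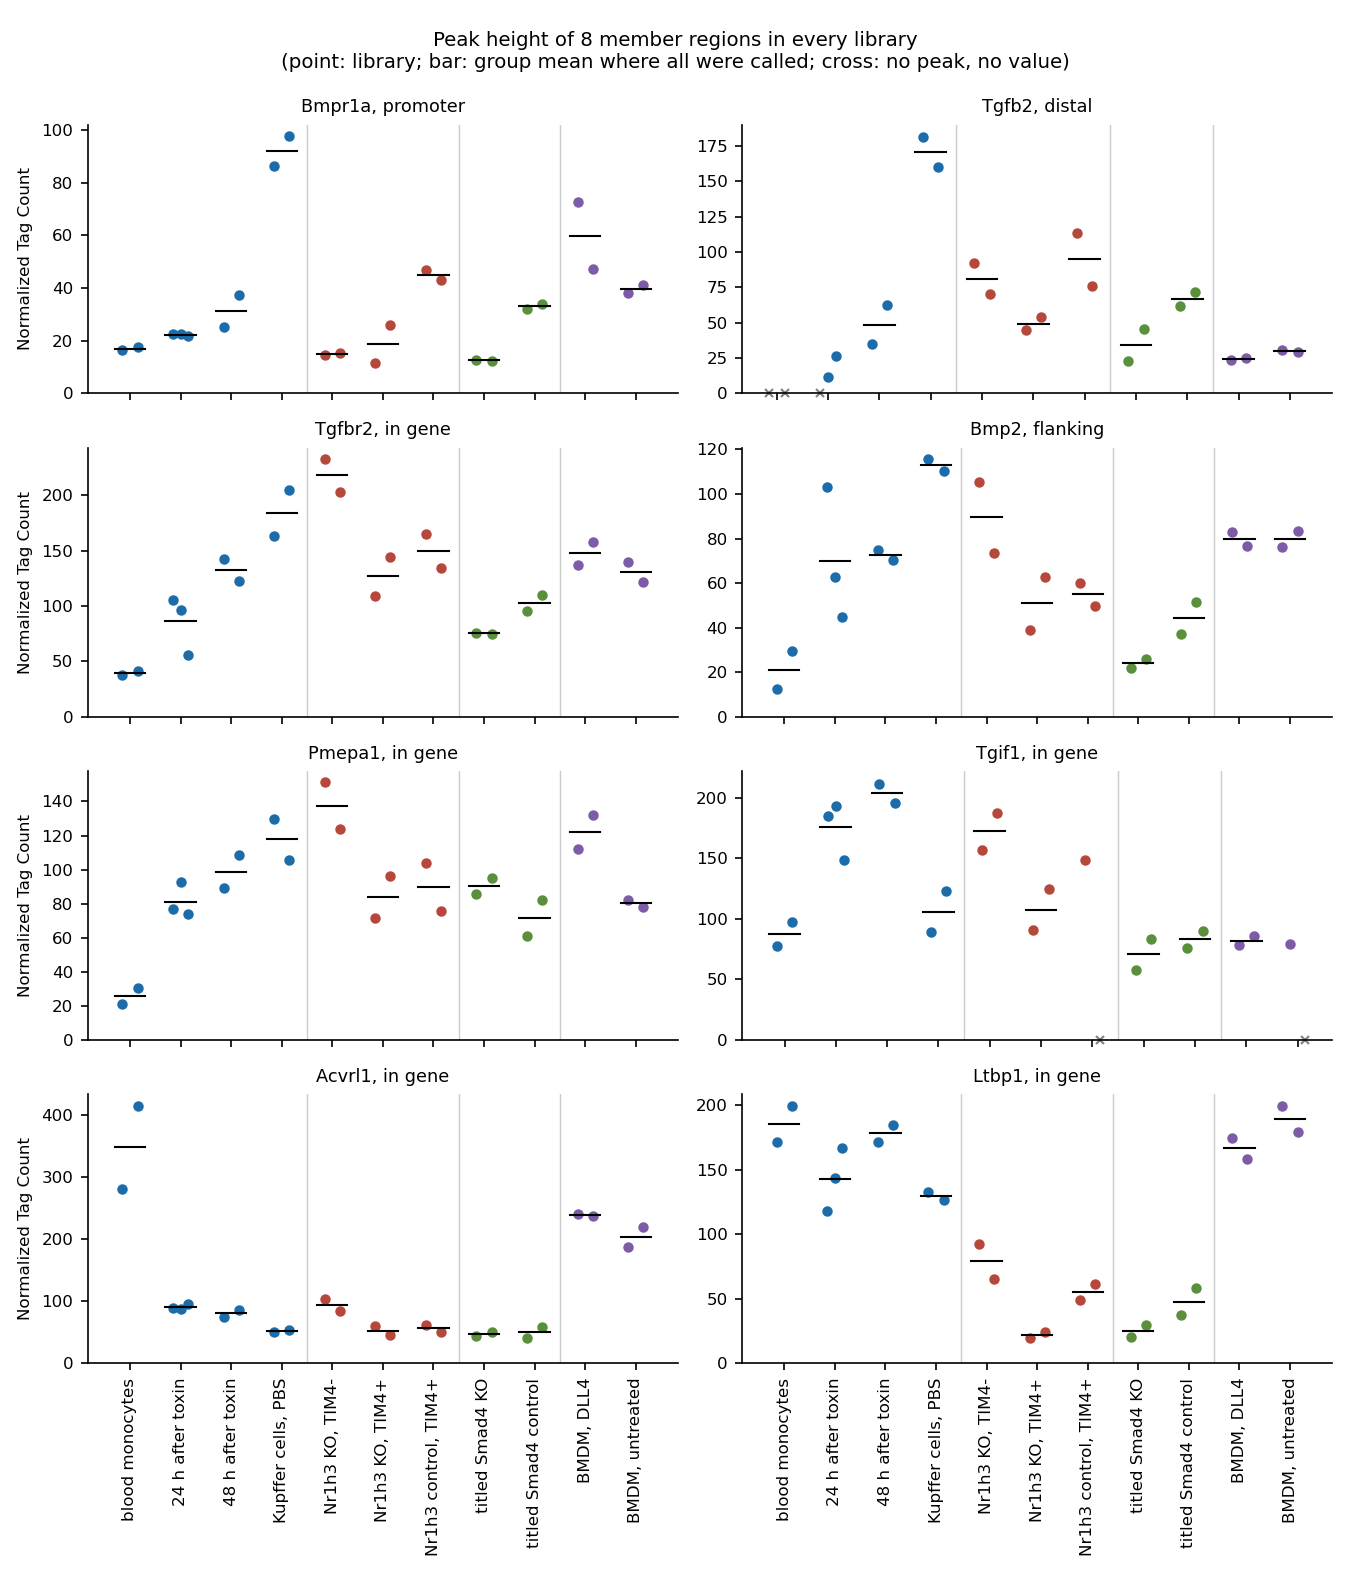
Normalized tag count (tags per 10 M, y axis of each panel) of 8 pathway regions in each library, by group along the x axis. Points are libraries, bars are group means and a cross marks a library with no peak in the region. The Bmpr1a promoter reached 86.3 and 97.8 in PBS Kupffer cells and stayed at or below 72.7 elsewhere, whereas the Acvrl1 region was highest in blood monocytes.

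The first comparison asked how chromatin differed 24 h after Kupffer cell loss, when the niche is being refilled, from that of blood monocytes. Of 138 pathway regions with a peak in each of the 5 libraries, called shared regions here, 15 rose and 25 fell at 24 h (limma, adjusted p under 0.05 over all shared regions), against 16.7% higher and 9.33% lower over all shared regions (26.0% either way). The median log2 ratio of pathway regions was -0.05, against 0.09 over all. Ratios are taken after each library was centred on its own median. The medians differed by -0.18 on the log2 scale. Without centring 10 regions were higher and 32 lower, against 2077 and 5808 of 45317 over all. With quantile normalisation the counts were 12 and 28, against 5410 and 5155. Leaving out blood replicate 1 or 2 gave 24 or 25 calls in place of 40, and 20 of the 40 kept their call under every scaling, the larger pseudocount and every left-out library. A lost call means an adjusted p of 0.05 or more, and the ratio can stay as large.

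Among ligand genes, Bmp2 rose in all 3 of its shared regions. Bmp2 encodes a BMP that signals through Bmpr1a and Bmpr2. The region at the gene (chr2:133551993-133552332) had 59, 33.6 and 36 normalized tags at 24 h, against 9.77 and 12.7 in blood monocytes (log2 ratio 2.07 ± 0.33 SE, limma adjusted p = 2.1e-05). The groups did not overlap. The region 1312 bp from the gene (chr2:133550447-133550847) had 103, 62.7 and 44.6, against 12.2 and 29.6 (2.01 ± 0.31, adjusted p = 2e-05), and one 39231 bp away had 62.7, 61.7 and 33.2, against 16.3 and 18.3 (1.76 ± 0.31, adjusted p = 9e-05). Within each of the 3 regions the lowest 24 h library was above the highest blood library. Tgfb1, the gene of the TGF-beta ligand most blood cells make, fell in 2 of 5 regions.

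Receptor genes moved in different directions. Tgfbr2 encodes the type II TGF-beta receptor, and its intragenic region chr9:116101928-116102202 had 105.8, 96.2 and 56.0 at 24 h, against 37.4 and 40.9 in blood (1.33 ± 0.25, adjusted p = 0.00019). Acvrl1 encodes a type I receptor for BMPs of the circulation, and its region chr15:101141175-101141485 had 88, 87.2 and 94.8, against 280.8 and 415.1 (-1.65 ± 0.16, adjusted p = 1.2e-08). The 24 h libraries were all lower and close together. Co-receptor genes (Bambi included) had 2 higher and 2 lower of 6 regions. Bambi, a decoy receptor gene, rose in both of its regions. The one overlapping the gene had 789.2, 901.6 and 788.1 at 24 h, against 633.2 and 845.1 in blood, which overlap (0.44 ± 0.08, adjusted p = 0.00022), and lost its call without centring (adjusted p = 0.66) and under quantile normalisation (0.63). The other, 11263 bp away, had 38.4, 41.8 and 23.7, against 14.7 and 27.5 (0.98 ± 0.32, adjusted p = 0.025), and lost it without centring (adjusted p = 0.18) and without 24 h replicate 1 (0.078) or 2 (0.11) or blood replicate 1 (0.26) or 2 (0.067). Eng (endoglin) fell in its 1 shared region, with 17.8, 17.3 and 21.8 at 24 h, against 49.7 and 83.2 in blood (-1.45 ± 0.31, adjusted p = 0.0007). Tgfbr3 (betaglycan) fell in 1 of 3, with 17.8, 23.6 and 26.6, against 67.6 and 96.6 (-1.54 ± 0.29, adjusted p = 0.00022). The groups did not overlap at Eng or Tgfbr3.

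Intracellular restraining genes were split. Tgif1 encodes a homeodomain repressor of Smad2 and Smad3, and all 3 of its shared regions rose. The one within the gene at chr17:70851092-70851362 had 185.4, 193.4 and 148.9 at 24 h, against 77.3 and 97.3 in blood (1.27 ± 0.17, adjusted p = 1.6e-06). The promoter region whose sequence is given above had 171.3, 178.9 and 147, against 103.4 and 125.5 (0.80 ± 0.16, adjusted p = 0.0004), and this call was lost without centring (adjusted p = 0.11). In both the 24 h libraries were above the blood libraries. Pmepa1 encodes a membrane protein that sequesters receptor Smads, and its region chr2:173276441-173276759 had 76.8, 92.6 and 74.0, against 21.2 and 30.3 (1.90 ± 0.25, adjusted p = 1.9e-06). Ski, a corepressor of Smads, fell in 5 of 10 regions, and the intragenic one at chr4:155217381-155217682 had 30, 38.1 and 66.4, against 160.3 and 172 (-1.68 ± 0.26, adjusted p = 2.1e-05). Ubiquitin ligase gene Smurf1 fell in 1 of 4 and the inhibitory Smad gene Smad7 in 1 of 5.

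Smad and extracellular genes mostly fell where they were called. Smad3, the receptor Smad of TGF-beta, rose in 1 and fell in 4 of 14 regions. Its promoter region (chr9:63758026-63758405) had 124.5, 129.8 and 140.4 at 24 h, against 279.2 and 319.3 in blood (-0.91 ± 0.15, adjusted p = 3.5e-05), with no overlap. Ltbp1, which encodes a protein that tethers latent TGF-beta in the matrix, fell in 2 of 8, and the region chr17:75349075-75349435 had 14, 10.9 and 22.8, against 55.3 and 112.1 (-2.03 ± 0.34, adjusted p = 4.3e-05). Tgfbi fell in 3 of 10, and its promoter region had 65.5, 34.5 and 47.4, against 114 and 224.1 (-1.46 ± 0.24, adjusted p = 3.6e-05). Of 270 pathway regions called in either group, 6 were called in every 24 h library and in no blood library (3.02% over all regions), and 10 the other way (4.49%).

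From 24 h to 48 h few pathway regions differed. Of 143 shared regions 2 rose and 4 fell at 48 h, against 1.92% higher and 3.53% lower over all (5.44% either way). The Ski region 535 bp from the gene (chr4:155223070-155223528) had 230.1 and 260.4 at 48 h, against 390.4, 314.2 and 350 at 24 h (limma, -0.68 ± 0.13, adjusted p = 0.0028). All 48 h values were below all 24 h values, and this was the 1 call of the 6 that held under every scaling and left-out library. An intragenic Tgfbr2 region had 43.6 and 37.4 at 48 h, against 15.9, 15.4 and 11.4 at 24 h (1.29 ± 0.32, adjusted p = 0.02), and lost its call without either 48 h library (adjusted p = 0.2 without replicate 1 and 0.15 without replicate 2). An intragenic region of Acvr2a, a type II activin receptor gene, had 8.72 and 8.07, against 40.3, 20 and 23.7 (-1.73 ± 0.34, adjusted p = 0.0047), and lost it without 48 h replicate 2 (adjusted p = 0.12). The other 3 called regions, at Bambi, Skil and Smad4, had ratios between -0.50 and 0.55 and lost the call in 3 to 7 settings each. The number called was 3 without 48 h replicate 1 and 1 without replicate 2. With no centring or with quantile normalisation, 2 were higher and 2 lower. Over all 48442 shared regions the counts were 1104 and 253 without centring, and 845 and 604 with quantile normalisation. Of 290 regions called in either group, 14 were called only at 48 h and 1 only at 24 h, against 5.09% and 0.609% over all.

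Kupffer cells of PBS-treated mice were then set against 48 h macrophages, the latest repopulating stage sampled. Of 138 shared pathway regions 16 rose and 16 fell in Kupffer cells, against 13.7% and 12.6% over all (26.4% either way). Among ligand genes, Tgfb2 rose in all 3 of its shared regions, of which 2 lost the call without centring (adjusted p = 0.12 and 0.064). The largest change was at a region 46735 bp from Tgfb2 (chr1:186575652-186576052), with 181 and 160.1 normalized tags in Kupffer cells, against 34.9 and 62.3 at 48 h (limma, 2.13 ± 0.21, adjusted p = 6.6e-12). The groups did not overlap. It was also called in 2 of the 3 libraries at 24 h (11.8 and 26.6) and in no blood library. The Bmpr1a promoter rose by a log2 ratio of 1.83 ± 0.25 (adjusted p = 5.3e-08), and the Bmp2 region 1312 bp from the gene had 115.6 and 110.2, against 75.0 and 70.4 (0.91 ± 0.20, adjusted p = 0.00044). These 3 changes held under every scaling and left-out library. The 9 liver endothelial markers held 0.0432% to 0.0452% of peak signal in Kupffer cells, with regions at 7, against 0.0271% to 0.0297% at 48 h, with regions at 8, and Gpr182 was at 0 in both groups. Their part in these changes was not tested.

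Genes of intracellular restraint (Smad7, Ski, Skil, Smurf1, Smurf2, Tgif1, Pmepa1) gave 2 higher and 7 lower of 36 regions in that comparison, and receptor genes 7 higher and 2 lower of 44. Smurf2 encodes a ubiquitin ligase for receptors and Smads, and its region chr11:106920742-106920984 had 71.1 and 72.9 in Kupffer cells, against 172.6 and 161.4 at 48 h (-0.92 ± 0.19, adjusted p = 0.00016). The Tgif1 region that had risen at 24 h had 89.1 and 122.7, against 211.8 and 195.8 (-0.67 ± 0.17, adjusted p = 0.0026), and lost its call without Kupffer replicate 1 (adjusted p = 0.054) or 48 h replicate 1 (adjusted p = 0.084). All Kupffer values in both regions were below the 48 h values. The library medians differed by -0.30 on the log2 scale. Without centring 5 regions were higher and 34 lower, against 2919 and 11666 of 46198 over all. With quantile normalisation the counts were 16 and 13, against 5863 and 5744. Leaving out 48 h replicate 2 gave 11 calls in place of 32, 48 h replicate 1 gave 17 and Kupffer replicate 1 gave 18, and 6 calls kept under every setting.

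Regions called in only 1 of these groups lay mostly on the 48 h side. Of 295 pathway regions called in either group, 10 were called in both Kupffer libraries alone and 38 in both 48 h libraries alone, against 4.53% and 12.8% over all. Ltbp1 had 9 of the 38, Tgfbi 5, and Smad3, Smad7 and Tgfbr3 4 each. The Kupffer libraries held 62488 and 65492 peaks, against 75159 and 84395 at 48 h. With lists trimmed to equal length, 9 of 248 pathway regions were Kupffer-only and 17 were 48 h-only. Over all regions the same counts were 6987 and 6483 of 84752. Of the 38 regions 21 had a mean signal under 15, and 6 lay within 1 kb of a peak that both Kupffer libraries had.

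Resident Kupffer cells against blood monocytes gave the most calls. Of 115 shared pathway regions 31 rose and 30 fell, against 25.7% and 25.3% over all shared regions, where 51.0% were called. The pathway regions as a whole were therefore called about as often as any region, and their median log2 ratio was 0.01, against 0.00. The library medians differed by -0.40. Without centring 12 were higher and 37 lower, against 3802 and 11825 of 37850 over all. With quantile normalisation the counts were 29 and 33, against 9229 and 9836. Of the 61 calls 32 (12 higher, 20 lower) kept under every scaling and left-out library. This comparison shares its Kupffer libraries with the comparison against 48 h and its blood libraries with that at 24 h.

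By role, receptor genes had 14 higher and 7 lower of 37 regions, ligand genes 4 and 3 of 10, Smad genes 6 and 8 of 26, intracellular restraining genes 7 and 9 of 28, co-receptor genes (Bambi included) 0 and 0 of 3, and extracellular genes 0 and 3 of 11. The Bmpr1a promoter rose by 2.76 ± 0.29 (limma, adjusted p = 6.5e-13). The Bmp2 region 1312 bp from the gene had 115.6 and 110.2 in Kupffer cells, against 12.2 and 29.6 in blood (2.89 ± 0.28, adjusted p = 3e-14), and Bmp2 again rose in 3 of 3. Tgfbr2 rose in 5 and fell in 2 of 11. The Tgfbr2 region chr9:116101928-116102202 had 163 and 205.1, against 37.4 and 40.9 (2.59 ± 0.21, adjusted p = 2.4e-17), whereas one 2649 bp from the gene had 31.3 and 36.4, against 93.6 and 123.3 (-1.25 ± 0.24, adjusted p = 1e-05). No group overlapped with its counterpart at any of these regions. Acvr2b, a type II activin receptor gene, had 38.9 and 49.8, against 8.95 and 31.0, at its most changed region (1.73 ± 0.34, adjusted p = 1.7e-05).

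Acvrl1 and the Smad3 locus were lower in PBS Kupffer cells. The Acvrl1 region chr15:101141175-101141485 had 49.3 and 52.7, against 280.8 and 415.1 in blood (-2.33 ± 0.18, adjusted p = 2.9e-18), and 2 of 4 Acvrl1 regions fell. Smad3 fell in 7 of 8 regions and rose in the eighth. Without Kupffer replicate 1, calls at 2 of the 7 were lost (adjusted p = 0.3 and 0.067). Its promoter region had 90 and 107.4, against 279.2 and 319.3 (-1.20 ± 0.17, adjusted p = 7e-09). The 1 Smad3 region that rose (chr9:63706437-63706729) had 59.7 and 69.0, against 46.4 and 55.7 (0.72, adjusted p = 0.011), and lost its call without centring (adjusted p = 0.47) and without blood replicate 2 (adjusted p = 0.075). The Smurf1 promoter region (chr5:144965641-144966034) had 31.3 and 35.5, against 118 and 153.6 (-1.59 ± 0.23, adjusted p = 1.7e-08). Tgfb1 fell in 3 of 5, with 91.9 and 89.2, against 249.1 and 391.2, at its promoter region (-1.38 ± 0.17, adjusted p = 1.8e-10). The Tgfbi promoter region had 35.1 and 35.5, against 114 and 224.1 (-1.76 ± 0.22, adjusted p = 5.5e-10). At none of these regions did the groups overlap. Control Kupffer cells of the other experiments lay nearer to blood in share of peak signal, without a test. Acvrl1 held 0.00867% in PBS, 0.0158% in Nr1h3 control and 0.0171% in titled Smad4 control cells, against 0.0192% in blood. Smad3 held 0.0147%, 0.0263% and 0.0266%, against 0.034%.

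Endothelial marker signal moved with this comparison. The 9 liver endothelial markers held 0.0432% to 0.0452% of peak signal in Kupffer cells, with regions at 7, against 0.0162% in both blood libraries, with regions at 7. Gpr182 was at 0 in both groups, Flt4 in Kupffer cells and Tek in blood, and Cdh5 stands in the Kupffer list too. Stellate markers held 0.00592% to 0.00779%, against 0.00695% to 0.00806%. The part of endothelial DNA in the changes at Bmp2, Tgfb2 and the receptor genes was not tested.

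Pathway regions called in 1 group alone were rarer than over all on the Kupffer side and about as frequent on the blood side. Of 292 pathway regions called in either group, 26 were called in both Kupffer libraries alone and 48 in both blood libraries alone, against 12.8% and 15.9% over all. Tgfb2 had 4 Kupffer-only regions, with 181 and 160.1 at the one 46735 bp away, 41.7 and 55.6 at an intragenic one, 53.1 and 31.6 at another, and 26.5 and 26.8 at one 38543 bp away. Ltbp1 had 9 blood-only regions, Smad3 7, Tgfbr3 6, Tgfbi 5, Smad7 4 and Eng 3. In all, Ltbp1 had 33 regions, Smad3 28, Tgfbi 27, Tgfbr3 17, Smad7 17, Tgfb2 12 and Eng 11. The counts per gene were not set against those of other genes with as many regions. Markers of other blood cells were lower in Kupffer cells too. The 7 T and NK cell markers held 0.00168% to 0.00223% of peak signal in Kupffer cells, with regions at 2 or 3, against 0.00607% to 0.00695% in blood, with regions at 4 or 5. The 6 neutrophil markers held 0.0079% to 0.00828%, with regions at 3, against 0.0144% to 0.0156%, with regions at 5. Cd3g, Cd8a and Elane were at 0 in both groups, and the part of such cells in the blood-only regions was not tested. The strongest blood-only region was in Ltbp1 (chr17:75199595-75199885), with 93.6 and 141.7 in blood. In region counts, Ltbp1 had 3 and 2 regions in PBS Kupffer libraries, against 12 and 15 in blood. Tgfbr3 had 1 and 1, against 8 and 7, and Eng 0 and 0, against 4 and 3. Tgfb2 went the other way, with 7 and 7, against 2 and 1. Control Kupffer cells of the other experiments differed from PBS cells in part. Tgfbr3 had 6 and 4 regions in Nr1h3 control and 1 and 1 in titled Smad4 control libraries. Eng had 1 and 0, and 3 and 3, Ltbp1 1 and 1, and 2 and 4, and Tgfb2 6 and 7, and 6 and 6. An uncalled region need not be closed, since a peak has to stand out from its surroundings, and 4 of the 26 and 8 of the 48 lay within 1 kb of a peak of the other group.

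Tgfb3, the gene of the third TGF-beta, had 3 regions. The 2 adjoining regions chr12:86078426-86078770 and chr12:86078915-86079220 were called in all 12 Kupffer cell libraries of the 3 liver experiments, at 9.49 to 49.2 and 11.7 to 33.3 normalized tags. Neither was called in any of the 6 blood and BMDM libraries. At 24 h 1 of 3 libraries had a peak in 1 of them (11.2), and at 48 h 1 of 2 had the first (37.4) and both had the other (20 and 33.7). The third Tgfb3 region was called in all 23 libraries.

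**Figure D2:**
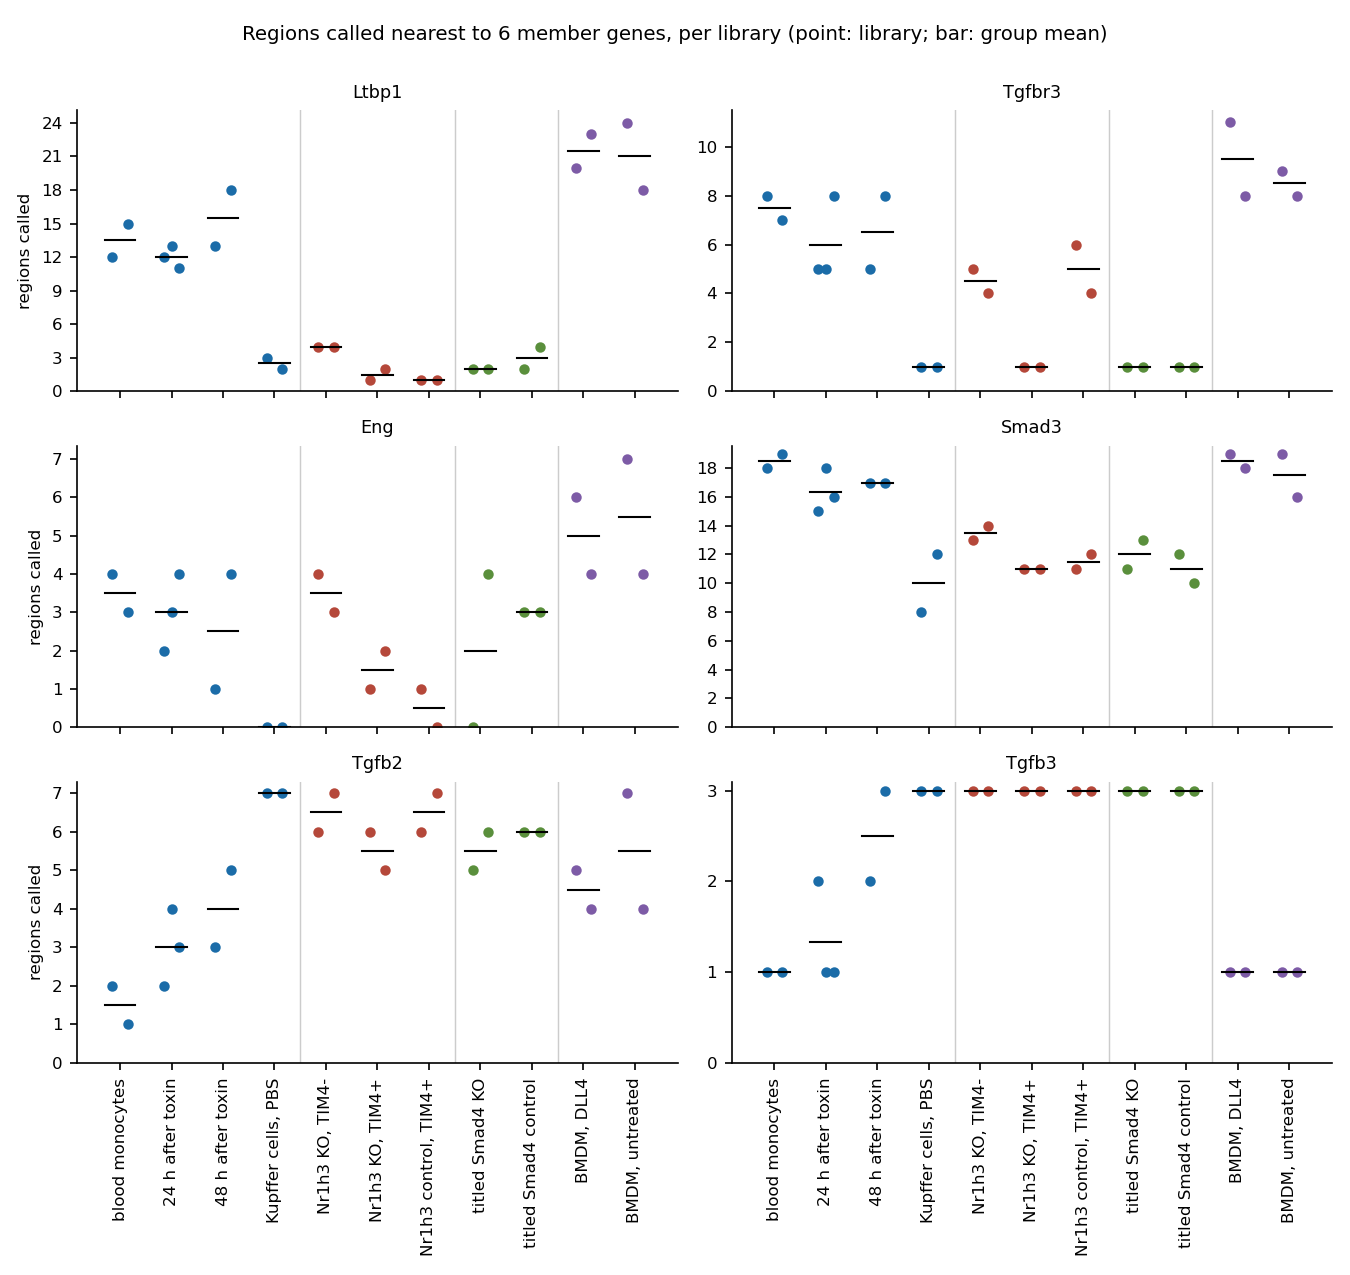
Number of regions called per library (y axis) for Ltbp1, Tgfbr3, Eng, Smad3, Tgfb2 and Tgfb3, by group along the x axis, with points for libraries. PBS Kupffer libraries had 3 and 2 Ltbp1 regions, against 12 and 15 in blood, and 7 and 7 Tgfb2 regions, against 2 and 1.

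Deletion of Nr1h3 was examined in TIM4+ cells first. Of 128 shared pathway regions 6 rose and 6 fell in TIM4+ knockout cells, against 4.86% and 3.91% over all (8.78% either way). The Bmpr1a promoter fell by 1.01 ± 0.26 on the log2 scale (limma, adjusted p = 0.0039), but lost its call without TIM4+ knockout replicate 1 (adjusted p = 0.23), control replicate 1 (0.052) or control replicate 2 (0.15). The Ltbp1 region chr17:75119485-75119830 had 19.1 and 23.9, against 49.2 and 61.4 (-1.02 ± 0.24, adjusted p = 0.0013), and lost it without control replicate 2 (adjusted p = 0.3). An intragenic region of Smad5, a BMP Smad, had 7.02 and 16.4, against 39.3 and 29.7 (-1.27 ± 0.30, adjusted p = 0.00089), and lost it without knockout replicate 1 (adjusted p = 0.11). At these 3 regions every knockout value was below both control values. A region 47264 bp from Acvr2a had 14.0 and 36.2, against 63.0 and 60.1 (-1.10 ± 0.23, adjusted p = 0.0002), and lost its call without knockout replicate 1 (adjusted p = 0.16) or control replicate 2 (0.074). The distal Tgfb2 region had 44.7 and 53.9, against 113.4 and 75.9 (-0.60 ± 0.18, adjusted p = 0.021), and lost it without centring (adjusted p = 0.059) and without knockout replicate 1 (0.055), control replicate 1 (0.35) or control replicate 2 (0.072).

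The 6 regions that rose in TIM4+ knockout cells, 2 each at Smad3 and Tgfb1 and 1 each at Acvrl1 and Ski, had ratios of 0.45 to 0.54 and rested on the scaling. None of the 6 was called without centring or under quantile normalisation. The Smad3 promoter region, for example, had 141.7 and 175.4 in knockout cells, against 166.6 and 114.2 in control cells, which overlap, with a ratio of 0.50 ± 0.15 after centring (adjusted p = 0.014) that was lost without centring (adjusted p = 0.85). Without centring 0 regions were higher and 5 lower, against 60 and 1405 of 40231 over all. With quantile normalisation the counts were 0 and 7, against 1121 and 1789. Leaving out control replicate 1 or 2 gave 4 or 2 calls in place of 12, and knockout replicate 1 gave 5, and no call of the 12 kept under every setting. Of 220 regions called in either group, 1 was called only in the knockout and 16 only in the control, against 1.06% and 7.69% over all. Acvrl1 had 3 of the 16, with 31.8 and 23.1 at the strongest.

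TIM4- knockout cells against the same control libraries gave 8 higher and 7 lower of 145 regions, against 7.03% and 6.68% over all (13.7% either way). The comparison changes TIM4 status and genotype together, so their parts cannot be told apart. The Bmpr1a promoter fell by 1.92 ± 0.28 (limma, adjusted p = 1.3e-09). The Tgfb2 region 38543 bp from the gene (chr1:186583910-186584244) had 8.25 and 8.72, against 28.9 and 18.5 (-1.75 ± 0.33, adjusted p = 7.3e-06). The intragenic Ski region chr4:155217381-155217682 had 35.9 and 37.0, against 68.2 and 52.8 (-1.11 ± 0.22, adjusted p = 2.4e-05). These 3 were the calls that kept under every scaling and left-out library, and in each both knockout values were below both control values.

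Other calls in that comparison were lost under 1 or more settings. The Smad3 region 45103 bp away had 8.25 and 10.9, against 20.8 and 17.2 (-1.33 ± 0.33, adjusted p = 0.0015), and lost its call without TIM4- knockout replicate 1 (adjusted p = 0.054), with ratios of -1.50 to -1.12 over the left-out libraries. The same intragenic Smad5 region had 23.6 and 24.0, against 39.3 and 29.7 (-0.91 ± 0.27, adjusted p = 0.0096), and lost it without centring (adjusted p = 0.18) and without TIM4- replicate 1 (0.072), control replicate 1 (0.081) or control replicate 2 (0.066), with ratios of -0.95 to -0.87 over the left-out libraries. The distal Tgfb2 region and a Smurf2 region lost theirs without centring (adjusted p = 0.53 and 0.74). The 8 regions that rose lay at Tgfb1 (2), Acvrl1 (2), Smad3 (2), Smad2 and Ski, with ratios of 0.40 to 0.72, and none of the 8 kept its call under every setting. TIM4- libraries had more signal at shared regions, by 0.48 on the log2 scale. Without centring 39 regions were higher and 4 lower, against 12329 and 1178 of 46888 over all. With quantile normalisation the counts were 1 and 7, against 1701 and 2577. Leaving out control replicate 1 or 2 gave 7 calls each in place of 15, and TIM4- replicate 1 or 2 gave 10 or 11. Of 250 regions called in either group, 19 were called only in the TIM4- knockout and 9 only in the control, against 6.6% and 3.5% over all, and 8 of the 19 lay within 1 kb of a control peak.

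Kupffer and endothelial marker signal also differed between these groups. Kupffer markers held 0.0273% to 0.0274% of peak signal in TIM4- and 0.0461% to 0.05% in TIM4+ knockout cells, against 0.0787% to 0.0788% in control cells, with regions at 5 or 6, 6 and 6 of 6 markers. Endothelial markers held 0.0252% to 0.0282% and 0.0206% to 0.0233%, against 0.0399%, with regions at 8, 5 and 7 of 9. Gpr182 was at 0 in all 3 groups, and Flt4, Tek and Ptprb were at 0 in TIM4+ knockout cells. The part of cell composition in the pathway changes was not tested. The targeted gene itself had a region (chr2:91189796-91190011) called in the 4 knockout libraries, at 23, 41.4, 20.4 and 23.2, and in no other library. Peaks over other parts of Nr1h3 were called in every library, and peaks alone check no deletion.

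Between the knockout cells, TIM4- against TIM4+, 1 of 130 shared pathway regions rose and 0 fell, against 0.607% and 1.5% over all (2.11% either way). At an unadjusted p under 0.05 limma gave 3 higher and 8 lower. The 1 call was the Ltbp1 region chr17:75119485-75119830, with 92.5 and 65.4 in TIM4- and 19.1 and 23.9 in TIM4+ cells (limma, 1.07 ± 0.24, adjusted p = 0.0016). The groups did not overlap, and the call was lost without TIM4- replicate 1 (ratio 0.83, adjusted p = 0.34). Leaving out TIM4+ replicate 1 or 2 gave 2 or 3 calls. The same region had fallen in TIM4+ knockout cells against control cells, as given above. Centring removed a difference of 0.72 on the log2 scale. Without it 102 regions were higher and 0 lower, against 28314 and 147 of 41838 over all. With quantile normalisation the counts were 1 and 0, against 139 and 314. Of 241 regions called in either group, 29 were called only in TIM4- cells and 0 only in TIM4+ cells, against 10.9% and 0.559% over all, and 24 of the 29 had a mean signal under 15. TIM4- libraries held 68613 and 68757 peaks, against 48775 and 53972 in TIM4+ libraries. With lists of equal length, 5 of 185 pathway regions were TIM4- only and 1 TIM4+ only. Over all regions the same counts were 1757 and 1567 of 60269.

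In the Smad4 experiment, Smad4 being the partner of all receptor Smads, 6 pathway regions rose and 3 fell of 121 in cells titled knockout, against 1.57% and 1.5% over all (3.07% either way). The direction of each value follows the titles, and the strain labels read the other way. Both Smad4 regions shared by the groups differed little. One (chr18:73703747-73704023) lay over the upper coordinate of the Smad4 gene body (73634790 to 73703791). It had 55.8 and 54.6 in cells titled knockout, against 55.1 and 75.4 in cells titled control (limma, 0.12 ± 0.18, adjusted p = 0.83). The region 11367 bp from the gene had 16.7 and 24.8, against 23.6 and 37.7 (-0.19 ± 0.26, adjusted p = 0.8). The values overlap in both, and such peaks do not show which cells carry the deletion.

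The 3 regions that fell in cells titled knockout lay at Bmpr1a and Tgfb2. The Bmpr1a promoter fell by 0.99 ± 0.28 (limma, adjusted p = 0.027), but lost its call under quantile normalisation (adjusted p = 0.064) and without knockout replicate 2 (0.17), control replicate 1 (0.3) or control replicate 2 (0.15). An intragenic Tgfb2 region (chr1:186677663-186677949) had 7.26 and 7.44, against 24.8 and 26.2 (-1.33 ± 0.31, adjusted p = 0.0034), and lost it without control replicate 1 (adjusted p = 0.089) or 2 (0.051). The distal Tgfb2 region had 22.9 and 45.3, against 61.8 and 71.6 (-0.69 ± 0.20, adjusted p = 0.041), and lost it in 5 settings, with adjusted p = 0.56 without knockout replicate 1. In all 3 the values titled knockout were below those titled control.

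Of the 6 regions that rose, the Smad3 region chr9:63706437-63706729 had 85.9 and 107.9, against 58.1 and 74.9 (0.87 ± 0.16, adjusted p = 9.5e-05), and lost its call only without centring (adjusted p = 0.54). The Pmepa1 region chr2:173276441-173276759 had 85.4 and 94.9, against 61.2 and 82.0 (0.68 ± 0.16, adjusted p = 0.0049), and lost it without centring (adjusted p = 0.72) and without knockout replicate 1 (0.14), control replicate 1 (0.098) or control replicate 2 (0.073). In both, the values titled knockout were the higher ones. The other 4, at Tgfb1 (2), Ski and Tgfbi, had ratios of 0.55 to 1.22 and lost the call without centring. The library medians differed by -0.27. Without centring 0 regions were higher and 2 lower, against 28 and 502 of 40067 over all. With quantile normalisation the counts were 2 and 1, against 253 and 414. Leaving out any 1 library gave 1 to 4 calls in place of 9, with 1 each without control replicate 1 or 2, and no call held under every setting. Of 239 regions called in either group, 1 was called only in cells titled knockout and 19 only in cells titled control, against 1.24% and 6.97% over all. Tgfbr2 had 5 of the 19 and Ski 3, and 17 of the 19 had a mean signal under 15. The share of tags in peaks was 15.4% and 19.6% in libraries titled knockout, against 19.5% and 25.2%. Kupffer markers held 0.0315% to 0.043% of peak signal, against 0.0703% to 0.0718%, with regions at 6 of 6 in both, and their part was not tested.

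Notch ligand treatment of BMDMs moved few pathway regions. Of 205 shared regions 12 rose and 4 fell after DLL4, against 2.36% and 1.52% over all (3.88% either way). Under quantile normalisation the counts were 0 and 3, against 634 and 515 of 72015 over all. The changes were small, with ratios of 0.31 to 1.06 among those that rose. They included 2 regions of Smurf1 and 1 each of Tgfb1, Tgfbr1, Tgfbr2, Bmpr2, Acvr2a, Smad2, Smad4, Skil, Pmepa1 and Tgfbi. The Tgfb1 promoter region had 359 and 318.8 after DLL4, against 239 and 254.9 untreated (limma, 0.42 ± 0.11, adjusted p = 0.013), and lost its call under quantile normalisation (adjusted p = 0.16) and without DLL4 replicate 1 (0.38) or untreated replicate 1 (0.36). A region 9458 bp from Tgfbi had 40 and 41, against 15.4 and 21.9 (1.06 ± 0.28, adjusted p = 0.012), and lost it under quantile normalisation (adjusted p = 0.051) and without DLL4 replicate 1 (0.11), DLL4 replicate 2 (0.11) or untreated replicate 1 (0.31). The values of the groups did not overlap in either region.

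The 4 regions that fell after DLL4 lay at Ltbp1, Smad7, Smad3 and Ski. The Ltbp1 region chr17:75112970-75113257 had 7.27 and 9.58, against 37.5 and 20.1 (-1.64 ± 0.33, adjusted p = 0.00039), and lost its call without untreated replicate 1 (adjusted p = 0.19). An intragenic region of Smad7, whose protein blocks type I receptors, had 16.0 and 13.7, against 30.1 and 36.8 (-1.15 ± 0.30, adjusted p = 0.011), and lost it without DLL4 replicate 2 (adjusted p = 0.099), untreated replicate 1 (0.13) or untreated replicate 2 (0.23). DLL4 values were the lower ones in both. The number called by limma was 0 without untreated replicate 1 (29 at an unadjusted p under 0.05), 3 without DLL4 replicate 1, 5 without DLL4 replicate 2 and 7 without untreated replicate 2, in place of 16, and no call kept under every setting. Of 340 regions called in either group, 6 were called only after DLL4 and 6 only untreated, against 2.1% and 2.0% over all. The Bmpr1a promoter, at 72.7 and 47.2, against 38.1 and 41.2, was not called (0.52 ± 0.22, adjusted p = 0.17).

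**Figure D3:**
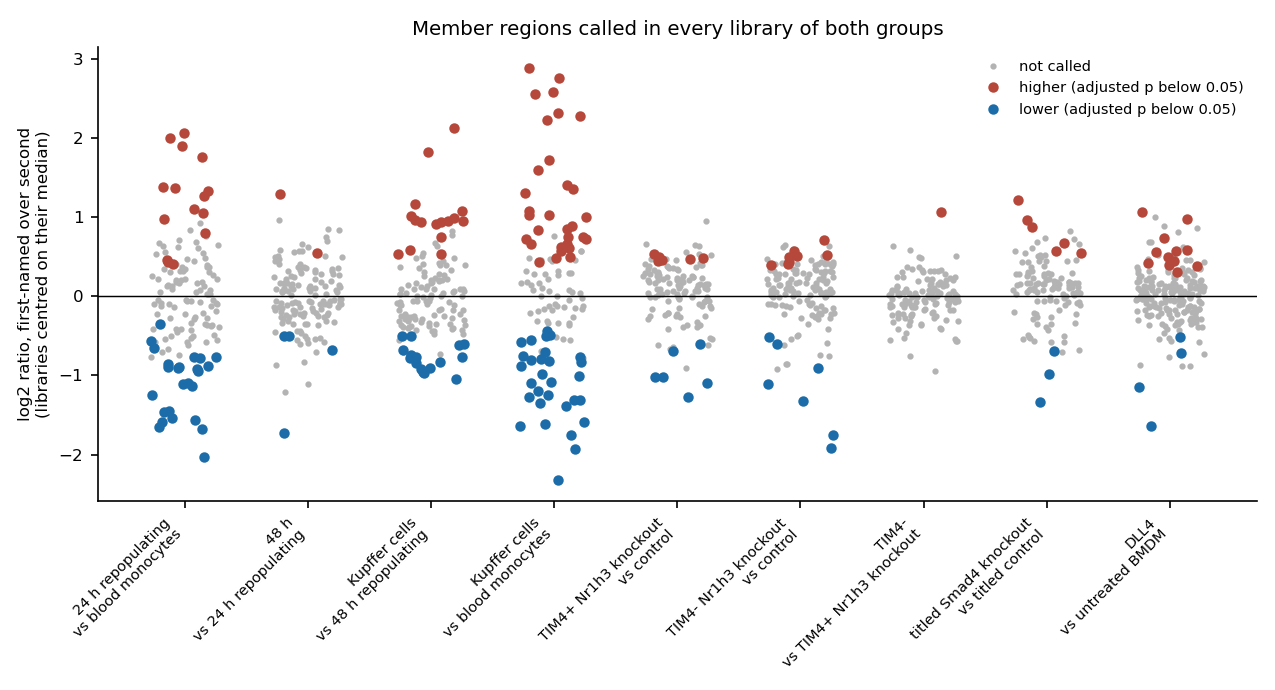
Log2 ratio (y axis) of each pathway region shared by the groups, in each of the 9 comparisons along the x axis. Each point is a region, red where called higher, blue where called lower (limma, adjusted p under 0.05) and grey otherwise. The widest spread is between Kupffer cells and blood monocytes, with 31 higher and 30 lower of 115, and the narrowest sets of calls are the TIM4- against TIM4+ knockout (1 of 130) and 48 h against 24 h (6 of 143).

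Regions that distinguished Kupffer cells from blood monocytes were followed into the other experiments. Each share below is set against that of all regions with the same direction between Kupffer cells and blood. Of the 31 pathway regions higher in Kupffer cells, 30 were shared in TIM4+ knockout and control cells, where 0 were called higher and 2 lower, against 2.73% and 6.06% of all Kupffer-high regions. In TIM4- knockout cells 0 were higher and 1 lower of 30, against 5.70% and 8.44%. In cells titled Smad4 KO 2 were higher and 1 lower of 27, against 0.981% and 2.12%, and after DLL4 3 were higher and 0 lower of 30, against 4.93% and 0.690%. Of the 30 regions lower in Kupffer cells, 5 were higher and 1 lower of 26 in TIM4+ knockout cells (19.2% and 3.85%, against 9.31% and 0.687%), and 4 were higher and 1 lower of 27 in TIM4- knockout cells (14.8% and 3.70%, against 12.3% and 1.08%). In cells titled Smad4 KO 2 were higher and 0 lower of 25 (8% and 0%, against 2.41% and 0.181%), and after DLL4 3 were higher and 1 lower of 30, against 1.79% and 1.62%. The higher ones in the Nr1h3 comparisons lay at Acvrl1, Smad3, Tgfb1 and, in TIM4+ cells, Ski, and none of these calls kept under every setting. The higher ones in the Smad4 comparison, at Tgfb1 and Tgfbi, were lost without centring. Among the Kupffer-high regions, the Bmpr1a promoter was the lower one in the TIM4- and the Smad4 comparison, and the region 47264 bp from Acvr2a joined it in TIM4+ cells. The Tgfbr2 region chr9:116101928-116102202, high in Kupffer cells, had 233.3 and 203.2 in TIM4- and 109.1 and 144.7 in TIM4+ knockout cells, against 165.4 and 134.0 in control cells, and was called in neither comparison. It had 75.9 and 74.4 in cells titled Smad4 KO, against 95.7 and 109.9, and was not called there.

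As a share of all peak signal of a library, the leading gene differed between groups. Smad3 led in both blood libraries (group mean 0.034%), the Smad corepressor gene Skil in both 48 h libraries (0.0264%) and Tgfbr2 in both PBS Kupffer libraries (0.0283%). At 24 h the leading gene was Tgfbr2, Bambi or Smad3, depending on the library, and Smad3 had the highest mean (0.0237%). Smad3 was at 0.0147% in Kupffer cells, the lowest of its 11 group means, and at 0.0316% and 0.0329% in TIM4- and TIM4+ Nr1h3 knockout cells, against 0.0263% in control cells. The strongest single regions on average over the 23 libraries were at Bambi (574 normalized tags), Tgfbr1 (464), Ski (324) and Skil (315), an order over the mean of all libraries that does not hold in each group. The Ski region, for example, had 162.1 and 225.3 in Kupffer cells, where the Skil region had 185.8 and 251.2, against 498.9 and 582.2 in blood, where the Skil region had 341 and 433.5. These shares move with which weak peaks were called, and no test was made of them.

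**Figure D4:**
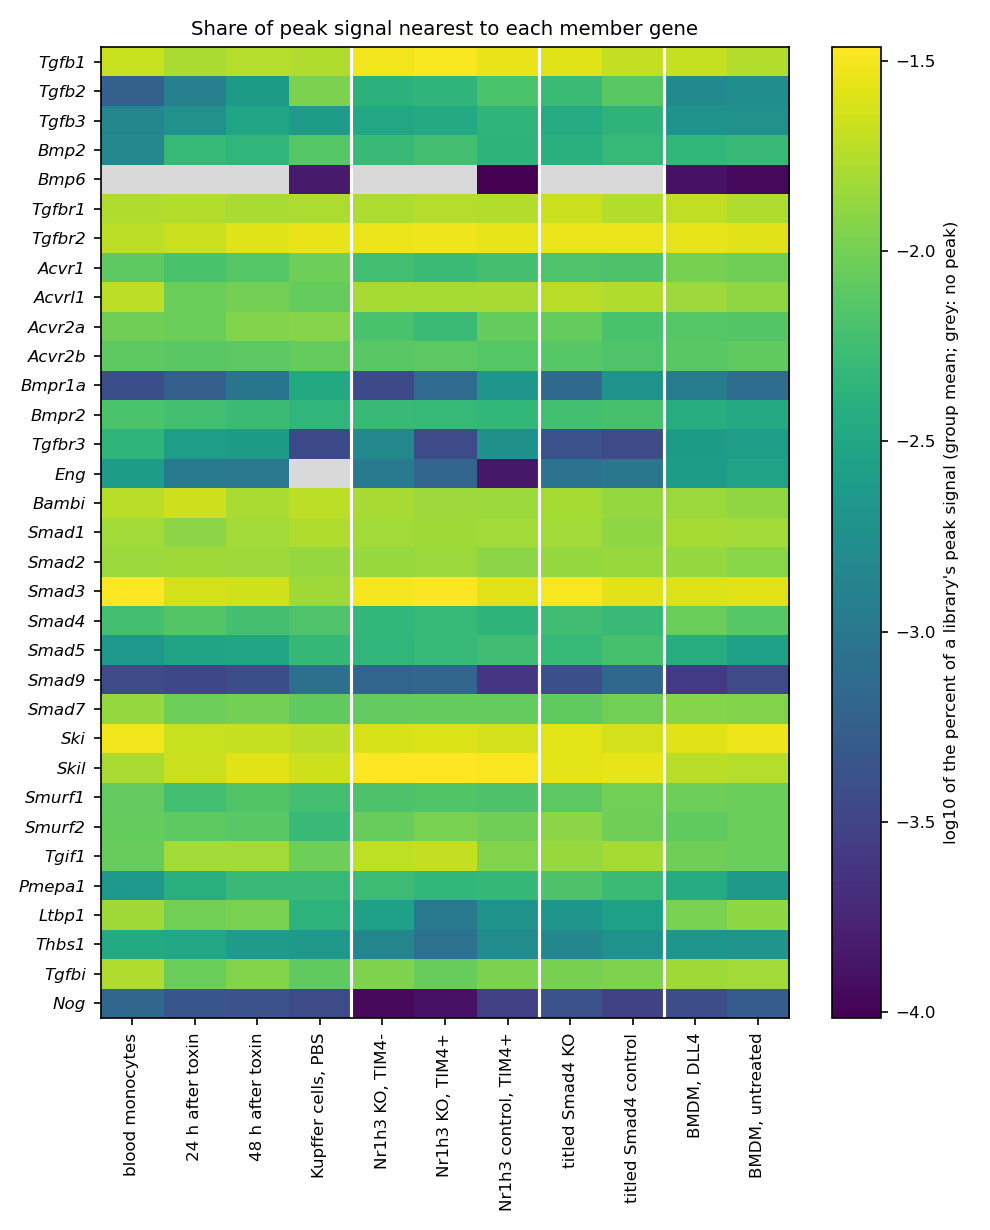
Percent of each library's peak signal (colour, log10 scale, group mean) for 33 pathway genes in rows and 11 groups in columns. Smad3 stands at 0.0147% in PBS Kupffer cells and 0.034% in blood, and Tgfbr2 at 0.0283% in PBS Kupffer cells and 0.0191% in blood.

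A wider list of 75 other genes of the pathway (ligands, receptors, latency and activation genes, antagonists and targets) gave 32 higher and 12 lower of 201 regions at 24 h against blood (16.7% and 9.33% over all regions), 10 and 5 of 229 at 48 h against 24 h (1.92% and 3.53%), 38 and 34 of 237 in Kupffer cells against 48 h (13.7% and 12.6%), and 50 and 42 of 179 in Kupffer cells against blood (25.7% and 25.3%). In the Nr1h3 experiment it gave 18 and 11 of 219 in TIM4+ knockout cells against control (4.86% and 3.91% over all), 21 and 16 of 251 in TIM4- knockout cells against control (7.03% and 6.68%), and 1 and 2 of 228 between the knockouts (0.607% and 1.5%). In cells titled Smad4 KO 7 were higher and 9 lower of 205 (1.57% and 1.5% over all), and after DLL4 10 and 5 of 324 (2.36% and 1.52%). These counts describe the list, and no test set it apart from other regions. Ldlrad4 encodes a membrane relative of Pmepa1 that also restrains TGF-beta signalling. Its most changed region rose by 3.12 ± 0.26 at 24 h (limma, adjusted p = 1.1e-09), fell in Kupffer cells against 48 h (-1.61 ± 0.23, adjusted p = 1.4e-07), and rose by 1.47 ± 0.22 in cells titled Smad4 KO (adjusted p = 1.1e-06). Klf10, a TGF-beta-induced transcription factor gene, had a region that rose by 2.43 ± 0.30 in Kupffer cells against 48 h (adjusted p = 4.1e-09) and fell by 1.90 ± 0.24 in TIM4- Nr1h3 knockout cells (adjusted p = 2.2e-12). A region of Id3, a target of BMP Smads, fell by 1.08 ± 0.26 in cells titled Smad4 KO (adjusted p = 0.0052). Ratios under other scalings or with a library left out are not given for these 3 genes.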

How the data were processed

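ATAC-seq was made from about 50,000 cells per library with Nextera transposase, 14 PCR cycles and fragments of 175-225 bp, per the labels' protocols, which can favour short fragments. Reads were aligned with Bowtie2 to mm10 and peaks called with HOMER, per the submitters' processing notes (the sources used here give no versions). Per the file headers, peaks of 200 bp were called in each library alone, without input, at an FDR of 0.001, 4-fold over the surrounding 10 kb and a local Poisson p of 0.0001, so an open site in open surroundings can go uncalled. The deposited value is a normalized tag count, a signal in tags per 10 M, given for called peaks only. No count model was run on these values.

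Overlapping peaks (1 bp or more) of the 23 libraries were merged into regions, and each region was given to the protein-coding gene whose body lay closest, up to 50 kb away (RefSeq, GRCm38.p6; Python 3.11.15, pandas 2.3.3). Only the autosomes and chromosome X were used, which left out 1205 peaks. Shared regions, with a peak in each library compared, were fitted with limma 3.58.1 (R 4.3.3; trend, two-sided) on log2(signal + 1), centred per library, with Benjamini-Hochberg adjustment over all shared regions and a threshold of 0.05. The script was tested on simulated data with an equal spread in each region and larger changes than most called here. Smaller changes were not covered by that test. Regions called in every library of 1 group and in none of the other were counted without a test. Libraries of 10.4 to 18.4 M tags set the precision, and intervals over tags were not given. Alternatives covered the scaling, pseudocount, low values, peak height, overlap, gene distance, list length, replicate block and each left-out library. For each comparison, each gene with a called region was represented by its most changed region. Not all of these are given above, and other regions were added after their values were seen. Those not given include calls that kept under every setting, such as those at Smad1, Smurf2 and Smad4 in Kupffer cells against blood. The members and lists were chosen with earlier results of these data known. Promoter sequences come from RefSeq.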

Additional observations from a re-analysis of the deposited data

How the results depend on the processing

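The 111 gene and comparison pairs, each represented by its most changed region, were followed through the alternatives. Of them, 39 kept their call under every alternative scaling, pseudocount, block and left-out library, and 0 turned round. Leaving out 1 library kept 300 of 471 such calls, no centring 82 of 111, quantile normalisation 85 of 111, a pseudocount of 5 110 of 111. With 1 library left in a group, its spread was taken from the other group. The count model was not run.

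Called pathway regions with 1 library left out numbered 24 to 55 at 24 h against blood (40 with all libraries), 1 to 9 at 48 h against 24 h (6), 11 to 29 in Kupffer cells against 48 h (32), 48 to 59 in Kupffer cells against blood (61), 2 to 13 in TIM4+ Nr1h3 knockout against control (12), 7 to 11 in TIM4- knockout against control (15), 1 to 3 in TIM4- against TIM4+ knockout (1), 1 to 4 in titled Smad4 knockout against titled control (9) and 0 to 7 after DLL4 (16). Regions called in 1 group only numbered 17 to 34, 20 to 50, 67 to 87, 95 to 105, 25 to 41, 40 to 49, 43 to 53, 35 to 43 and 30 to 47 in the same order, and were 16, 15, 48, 74, 17, 28, 29, 20 and 12 with all libraries.

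Without centring the count was 5 in TIM4+ knockout, 43 in TIM4- knockout, 102 between the knockouts and 2 in the Smad4 comparison. With quantile normalisation it was 7, 8, 1 and 3 in that order, and 3 after DLL4. Counts over all shared regions under these settings stand with each comparison above. Restricting to peaks of at least 15 gave 9 calls of 110 in TIM4- knockout and 2 of 85 in the Smad4 comparison. Over all regions it gave 1432 higher and 2179 lower of 33902, and 257 and 250 of 25657. A mean signal of at least 20 gave 10 of 149 after DLL4, against 1325 and 1058 of 52805. A pseudocount of 5 gave 2 of 130 between the knockouts, against 331 and 867 of 41838. Group-only regions with peaks of at least 15 numbered 29 in Kupffer cells against 48 h, 18 in TIM4- knockout against control and 11 in the Smad4 comparison. Kupffer-only and 48 h-only were 6 and 23 of 215, against 4121 and 8578 of 73215 over all. TIM4- only and control-only were 12 and 6 of 179, against 3735 and 2071 of 56615. Titled knockout-only and titled control-only were 1 and 10 of 146, against 436 and 3499 of 46358. With lists of equal length, group-only regions numbered 26 of 248 in Kupffer cells against 48 h and 16 of 222 in TIM4- knockout. They numbered 6 of 185 between the knockouts and 20 of 303 after DLL4. Over all regions the first-named and second-named groups had 6987 and 6483 of 84752, and 3246 and 3730 of 74008. Between the knockouts they had 1757 and 1567 of 60269, and after DLL4 2616 and 2534 of 104649. The cause was not tested.

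Replicate numbers shared between groups gave no pairing by correlation of deviations (0.00884 in TIM4+, -0.00429 in TIM4-, 0.0611 between the knockouts, -0.038 in BMDMs). A replicate block gave 15 calls in TIM4+ knockout, 18 in TIM4- knockout, 1 between the knockouts and 12 after DLL4.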

Other observations

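A Tgfbr2 region (chr9:116156642-116156853) was called in all 8 libraries of the Smad4 and BMDM sets, at 29.8 to 88.5 normalized tags, and in none of the other 15. Over all regions 36 had this pattern, and the Tgfbr2 region ranked 2 among them by mean signal. It was chosen after its values were seen.

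Some strong regions were called in 1 group only beside a peak of the other group. A Tgif1 region had 140.2 and 156.3 in TIM4- Nr1h3 knockout cells and no peak in control cells, with a control peak 283 bp away. An Acvr2a region had 41.6 and 45.6 in control cells and no peak in TIM4+ knockout cells, with a peak of theirs 5 bp away. The same Acvr2a region had no peak in DLL4-treated BMDMs, against 57.1 and 63.1 in untreated BMDMs.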
